A study of Rattus norvegicus with 16 samples.

Results

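Hbb, Hbb-b1, Hbe2, Ahsp and Alas2 are genes of red blood cells and their precursors, measured here in whole liver of adult rats. They were listed by name as a possible sign of the blood held in the tissue, and each probe was taken whose accession or gene name led to one of them. All 5 genes were on the array, through 8 of its 30367 probes, and all 5 were among the 11091 features whose liver signal passed the filter for testing, out of 26913 named features. They were chosen on measured values of these arrays, the log2 ratio of liver over reference and the signals of its 2 channels in the 4 groups, so their levels and differences are given as a description, with no test.

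The groups were MM, M, CC and C, each with 4 arrays, and all animals were male Sprague-Dawley rats aged 78 to 86 days. Dams of the M offspring were dosed from the start of gestation until postnatal day 20 with methylmercury, polychlorinated biphenyls and organochlorine pesticides mixed in corn oil, at 1.0 mg/kg/day, and reared their own pups. MM offspring had the same exposure and were fostered at birth to another exposed dam. CC offspring came from dams given corn oil alone and were fostered to another control dam, whereas C offspring had the same corn oil and stayed with their own mothers. The M arrays are described as a control in 1 label field but as treated in their titles and treatment fields, and they count as exposed here. RNA of the 8 pups of a group was pooled in pairs, so an array stands for 2 rats, and pups of 1 litter cannot be told apart from unrelated pups. Liver RNA carried the red dye Cy5 and a universal reference RNA from 14 rat cell lines carried the green dye Cy3 throughout, and dyes were not swapped. The comparisons ask what fostering (CC against C, MM against M) and exposure before weaning (M against C, MM against CC) leave behind in the adult liver.

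Haemoglobin is built from alpha-type and beta-type globin chains, each of which holds a heme group, and it is made by erythroid cells before they mature. Red cells of mammals lose their nucleus, but the young forms that enter the blood, the reticulocytes, still carry globin messenger RNA. Liver forms blood cells in the fetus and is a blood-filled organ in the adult, so RNA from a piece of liver can hold transcripts of blood cells beside those of hepatocytes. Hbb and Hbb-b1 encode beta-globin chains of adult type, and Hbe2 is named as an epsilon chain, the beta-type chain of embryonic red cells. Ahsp encodes a chaperone that binds free alpha-globin, and Alas2 is the erythroid form of the enzyme that starts heme synthesis. In such a bulk sample fewer cells of a type and less RNA per cell cannot be told apart.

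Promoter sequence of the RefSeq gene table (build GRCr8) was at hand for 3 of the 5 genes, Hbb, Hbb-b1 and Alas2. The 2 beta-globin promoters are shown as a pair, and the Alas2 window is left out because its annotated start may not be that of the erythroid transcript. Each line gives the 150 bases before the annotated start, 5′ to 3′ on the gene's strand, which for both is the minus strand at chr1:167663722-167663871 and chr1:167643521-167643670, in the order printed. Capitals mark the CACCC box, the CCAAT box and the letters ATAAA on either strand, and in Hbb the 2 matches to CCAAT, 1 on each strand, lie side by side without overlap.
Hbb: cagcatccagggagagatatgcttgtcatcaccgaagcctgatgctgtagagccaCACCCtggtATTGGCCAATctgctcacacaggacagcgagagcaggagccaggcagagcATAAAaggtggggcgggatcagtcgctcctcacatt
Hbb-b1: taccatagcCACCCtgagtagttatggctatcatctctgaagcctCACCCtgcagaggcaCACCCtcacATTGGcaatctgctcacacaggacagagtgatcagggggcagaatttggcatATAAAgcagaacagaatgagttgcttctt
In the same window, CACCC occurred in 35.2%, CCAAT in 23.5% and ATAAA in 25.7% of the 33469 promoters of the table, and all 3 together in 1.59%, to which both genes belong. The longest run of bases the 2 windows share is 21 bases long, caatctgctcacacaggacag, and it begins inside a CCAAT match in Hbb and directly after the CCAAT match in Hbb-b1. These matches are descriptions of letters, not of bound sites.

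The arrays sat on 2 slides, with MM and M on slide 2 and CC and C on slide 1, so exposure and slide cannot be told apart, whereas both fostering comparisons lie within a slide. Every row of a slide held 2 arrays of each of its groups. Per array, liver RNA gave a signal well above background at 34.99% to 41.9% of the probes, with a median spot-to-spot variation of 9.54% to 40.04%. Both the 34.99% and the 40.04% were those of MM replicate 3. Log ratios of any 2 arrays correlated at 0.949 or more, with the lowest value between MM replicate 3 and CC replicate 1. The number of arrays and the signal over background set the precision. P-values weigh a difference against the spread between pools within groups, which does not include a difference between the slides.

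All 8 probes of the 5 genes were well above background on all 16 arrays in both channels, with 0 saturated spots and 0 spots set aside as outliers. Each had 2 spots, and the values below are their mean. The first Hbb probe (A_64_P028036) read 29936 intensity units in liver on MM replicate 2, the highest of its 16 values, against a background of 74.5. The second Ahsp probe (A_64_P150726) came nearest to background, at 97.5 units over 67.5 on MM replicate 3.

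The beta-globin gene Hbb had log2 ratios of liver over reference of 6.29, 7.23, 5.80 and 6.49 in MM, 6.34, 5.94, 5.86 and 6.10 in M, 6.83, 6.55, 6.72 and 6.11 in CC and 6.71, 6.73, 6.91 and 6.62 in C. Thus every M array lay below every C array, while MM spread over the whole range. The highest value of all 16 was that of MM replicate 2. The lowest was that of MM replicate 3, the array with the most variable liver spots. The means were 6.45 ± 0.59 in MM, 6.06 ± 0.21 in M, 6.55 ± 0.32 in CC and 6.74 ± 0.12 in C (SD, n = 4 each).

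The neighbouring gene Hbb-b1 read 5.48, 6.64, 5.70 and 5.77 in MM, 5.89, 5.09, 5.24 and 5.46 in M, 6.26, 5.93, 6.14 and 5.43 in CC and 6.26, 6.13, 6.62 and 6.20 in C. Again M and C did not overlap, and the low CC value was that of replicate 4. For Hbe2 the log2 ratios were 4.94, 5.97, 4.74 and 5.16 in MM, 5.19, 4.62, 4.58 and 4.79 in M, 5.67, 5.55, 5.45 and 4.93 in CC and 5.68, 5.65, 5.75 and 5.55 in C, with the same gap between M and C. The probes of the 3 beta-type genes may read each other's transcripts, since these genes belong to the same family. Probe sequences were not used here, so these genes are not counted as separate evidence.

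Ahsp, the alpha-globin chaperone, stood near the level of the cell line reference. Its log2 ratios were -0.16, 0.80, -0.10 and 0.05 in MM, -0.02, -0.41, -0.02 and -0.42 in M, -0.11, -0.06, 0.27 and -0.13 in CC and 0.03, 0.09, 0.38 and 0.08 in C. M lay wholly below C by a narrow margin, MM replicate 2 was the highest of the 16, and the other 3 MM arrays lay among the M and CC values.

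Alas2, the erythroid heme enzyme, read 2.28, 3.65, 1.38 and 2.60 in MM, 2.92, 2.16, 1.88 and 2.31 in M, 3.44, 3.16, 2.56 and 2.27 in CC and 3.17, 3.14, 2.65 and 2.74 in C. Here M and C did overlap, through M replicate 5, and MM alone covered the range of all 16 arrays. Alas2 varied most between pools, with an SD within groups of 0.60 against a median of 0.18 over the tested features, of which 99.1% had a smaller SD. For the first Hbb probe the SD was 0.36 (90.5% of features smaller) and for the first Ahsp probe 0.28 (79.8%). Between the 2 spots of a probe on an array the SD was 0.18 for Hbb, 0.25 for Ahsp and 0.24 for Alas2. An array's value is the mean of 2 such spots.

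**Figure D1:**
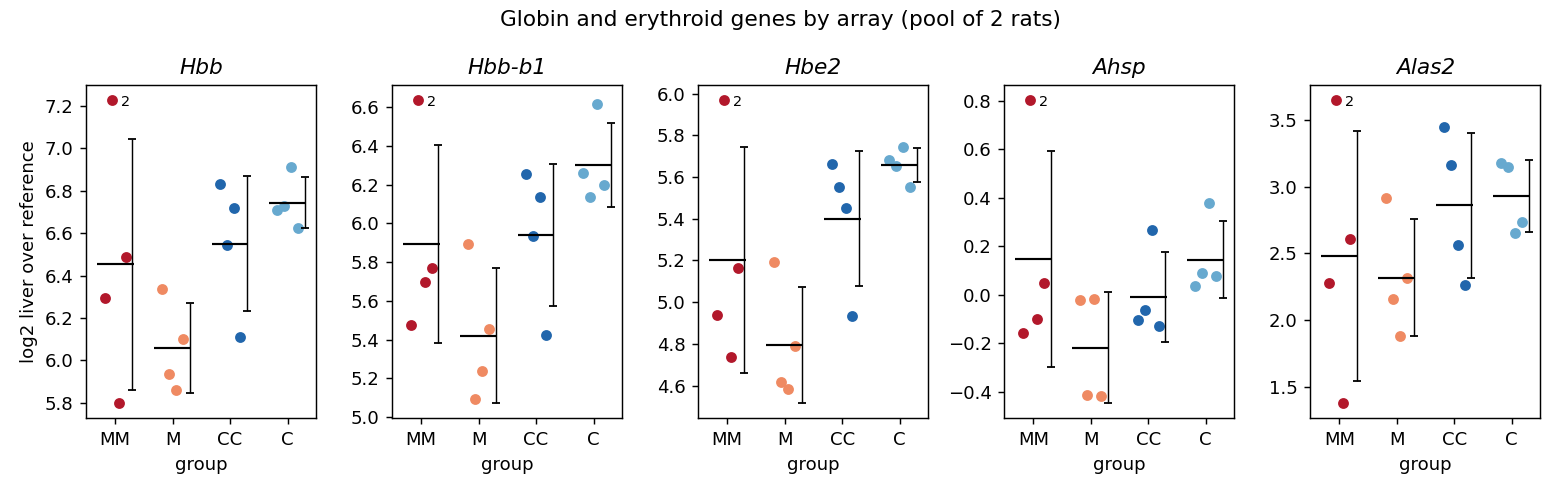
Log2 liver over reference (vertical axis) of each gene on each array, by group; points are arrays, lines are group means, and bars are the SD (n = 4). In each panel the MM point marked 2 is the highest, at 7.23 for Hbb and 3.65 for Alas2, and the M points lie below the C points except for Alas2.

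In the order of group means C was highest and M lowest for Hbb, Hbb-b1, Hbe2 and Alas2, with CC and MM between them. For Ahsp, MM at 0.15 came level with C at 0.15, and M was again lowest at -0.22. In the liver channel alone C was highest and M lowest for all 5 genes. On the probes used in the fit, the arrays of CC and C, of MM and CC and of MM and M overlapped for all 5 genes.

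In the exposure comparison of offspring left with their mothers, M against C, all 5 genes stood lower in M. In the SEs given, limma drew the spread of each gene toward that of all features. The difference was -0.69 ± 0.23 for Hbb (SE, n = 4 arrays per group throughout), which is 1.61-fold lower. It was -0.88 ± 0.24 for Hbb-b1, -0.86 ± 0.22 for Hbe2, -0.36 ± 0.18 for Ahsp and -0.61 ± 0.37 for Alas2. The second probes of Hbb, Hbb-b1 and Ahsp gave -0.81, -0.90 and -0.41. Of the 8 probes, 7 had all M arrays below all C arrays, an arrangement found in 728 of the 11091 features (6.56%). The 7 include every probe of Hbb, Hbb-b1 and Hbe2, which may read each other's transcripts. With limma, 455 features (4.1%) were called in M minus C at an adjusted p under 0.05, 171 of them higher and 284 lower in M.

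The 2 channels differed in their share of this gap. In the liver channel alone, M minus C was -0.68 ± 0.30 for Hbb, -1.02 ± 0.29 for Hbb-b1, -0.97 ± 0.28 for Hbe2, -0.31 ± 0.18 for Ahsp and -0.43 ± 0.27 for Alas2. In the reference channel, where the same RNA was read on every array, it lay between -0.14 and 0.02 over the 8 probes. The gap between M and C was thus larger in the liver channel than in the reference channel. In the reference channel 2 of the 8 probes had M and C arrays apart, and limma called 5376 of 11091 features in M minus C. The share of all features with arrays apart was not counted there. M and C arrays lay on different slides, and the part of the slide in the gap was not tested. Within slide row 1 the Hbb difference was -0.58 and within row 2 -0.79, and for Hbb-b1 the 2 values were -0.70 and -1.06. For Hbe2 they were -0.76 and -0.96, for Ahsp -0.28 and -0.45, and for Alas2 -0.62 and -0.60, so the sign was the same in both rows for all 5 genes.

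In the exposure comparison of fostered offspring, MM minus CC was -0.10 ± 0.23 for Hbb, -0.04 ± 0.24 for Hbb-b1, -0.20 ± 0.22 for Hbe2, 0.16 ± 0.18 for Ahsp and -0.38 ± 0.37 for Alas2, and for all 8 probes MM and CC overlapped. This comparison too lies across the 2 slides. In all, 100 features (0.902%) were called in it. Without MM replicate 2 the values were -0.36 for Hbb, -0.29 for Hbb-b1, -0.46 for Hbe2, -0.06 for Ahsp and -0.77 for Alas2. Without MM replicate 3 the Hbb value was 0.12 and the Alas2 value -0.01, and without MM replicate 1 the Hbb-b1 value was 0.10.

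In the fostering comparison of exposed offspring, MM against M, the 5 genes were higher in MM by 0.39 ± 0.23 for Hbb, 0.47 ± 0.24 for Hbb-b1, 0.41 ± 0.22 for Hbe2, 0.37 ± 0.18 for Ahsp and 0.16 ± 0.37 for Alas2. The arrays of MM and M overlapped for all 8 probes. With limma, 0 features (0%) were called in MM minus M, with 195 at an unadjusted p under 0.05. A single pool made up much of the difference, since without MM replicate 2 it was 0.14 for Hbb, 0.23 for Hbb-b1, 0.15 for Hbe2, 0.15 for Ahsp and -0.23 for Alas2. Alas2 also reached 0.53 without MM replicate 3, and Hbb 0.61. Between slide rows 1 and 2 the Alas2 difference turned its sign, at 0.43 and -0.10, while Hbb had 0.62 and 0.16.

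Fostering of control offspring, CC against C, gave differences below 0 for all 8 probes. They were -0.19 ± 0.23 for Hbb, -0.36 ± 0.24 for Hbb-b1, -0.26 ± 0.22 for Hbe2, -0.15 ± 0.18 for Ahsp and -0.07 ± 0.37 for Alas2. With limma, 0 features (0%) were called in CC minus C, with 107 at an unadjusted p under 0.05. Only the second Hbb probe, at -0.39 ± 0.25, had all CC arrays below all C arrays. The share of all features with this arrangement was not counted. CC replicate 4 was the lowest CC array for all 5 genes. Without it the difference was -0.05 for Hbb, -0.19 for Hbb-b1, -0.10 for Hbe2, -0.11 for Ahsp and 0.13 for Alas2. The Ahsp value lay between -0.25 (without CC replicate 3) and -0.08 (without C replicate 11). Without CC replicate 1 Alas2 stood at -0.26. In slide rows 1 and 2 it was 0.14 and -0.28, and Hbb was at -0.03 and -0.35.

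The interaction, (MM minus M) minus (CC minus C), was 0.59 ± 0.32 for Hbb, 0.84 ± 0.34 for Hbb-b1, 0.66 ± 0.31 for Hbe2, 0.52 ± 0.26 for Ahsp and 0.23 ± 0.53 for Alas2. Of all features, 0 (0%) were called for it by limma and 184 had an unadjusted p under 0.05. Without MM replicate 2 the interaction was 0.33 for Hbb, 0.59 for Hbb-b1, 0.41 for Hbe2, 0.30 for Ahsp and -0.16 for Alas2.

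**Figure D2:**
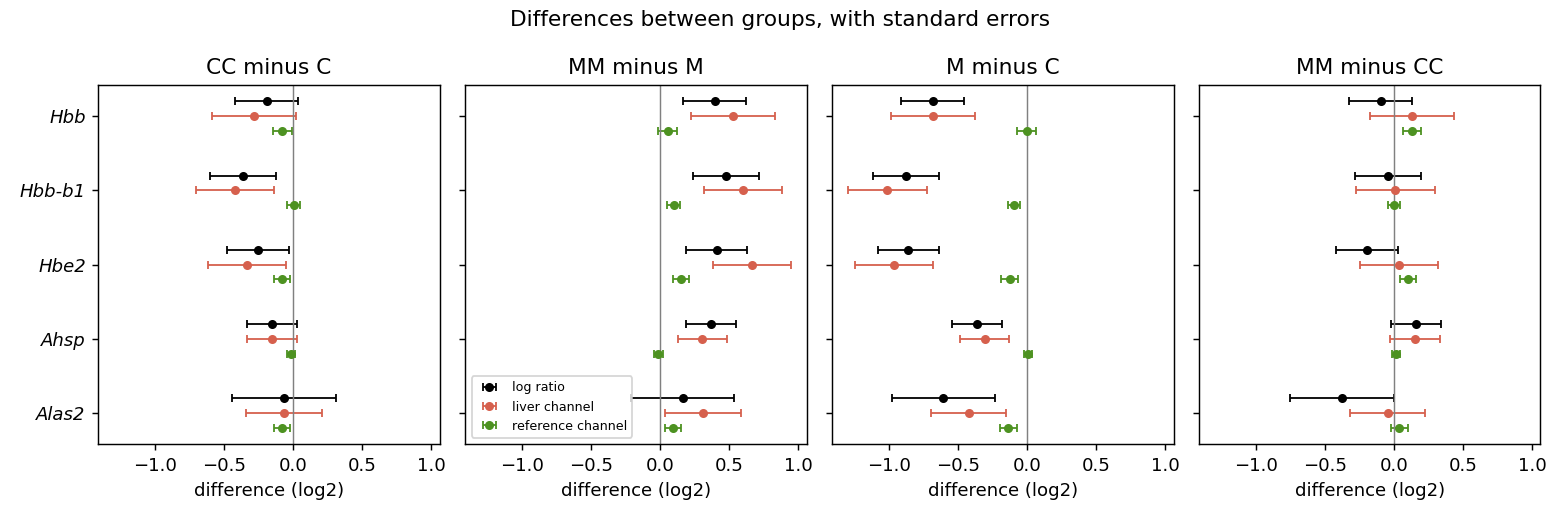
Differences between groups in log2 units (horizontal axis) for the 5 genes, with standard errors, in the log ratio, the liver channel and the reference channel. In M minus C the liver channel lies between -1.02 and -0.31, and the reference channel stays between -0.14 and 0.02.

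MM replicate 2 was the highest of the 16 arrays for 7 of the 8 probes in the log ratio and for 8 of 8 in the liver channel, and in the remaining case C replicate 11 was highest. Its liver channel value for Hbb was 14.77, against 13.31 ± 0.42 for the other 3 MM arrays (SD). For Alas2 it was 8.82 against 7.53 ± 0.24, and for Ahsp 8.04 against 7.20 ± 0.14. Over all tested features this array was the highest of 16 in 3.78%, against 13.5% for MM replicate 3. Its reference signal was well above background at 62.2% of probes, against 64.5% to 66.1% on the other 7 arrays of slide 2, and its reference spots varied least on that slide, by 9.42%. At the low end, the lowest value of a probe fell on M replicate 6 for 3 probes, on M replicate 8 and on MM replicate 3 for 2 each, and on M replicate 7 for 1.

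Other transcripts on that array were set beside it by lists of genes. The 3 tested globin genes outside the 5, Hbb-bs, Hba-a1 and Hba-a3, lay a median of 1.14 above their MM mean on MM replicate 2. Hba-a1 did not lie above it in the log ratio, at 3.97, but had its highest liver channel value of the 16 there, 16.38. The 7 tested genes of the red cell membrane had a median of 0.01 there, with 4 of 7 above. The 11 Kupffer cell markers, which belong to liver macrophages, had a median of -0.31, with 1 of 11 above. The 5 tested lymphocyte markers lay below in 5 of 5, with a median of -0.27, and the 12 hepatocyte markers were at 0.03 with 6 of 12 above.

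The 5 genes varied together from array to array. Over the 8 arrays of a slide, Pearson r was taken for the 10 pairs of genes. In the log ratio its median was 0.89 on slide 2 (0.69 to 0.98) and 0.64 on slide 1 (-0.31 to 0.96). Group means were not removed, so differences between the 2 groups of a slide enter these values. The median Spearman rho was 0.71 on slide 2 and 0.54 on slide 1. In the liver channel the median r was 0.92 on slide 2 and 0.77 on slide 1, but the median rho was 0.73 and 0.79. The lowest pair on slide 1 was Ahsp with Alas2. Without the 2 arrays farthest from the median, the median r in the log ratio was 0.55 on slide 2 and 0.25 on slide 1. In the liver channel it was 0.67 on slide 2 and 0.60 on slide 1. Much of the likeness in the log ratio thus rests on single arrays, and less of that in the liver channel. These are descriptions over genes that share arrays, pools and, for the beta-type genes, possibly transcripts.

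Other genes were ranked by how their deviations from the group means followed the mean deviation of the 5 genes over the 16 arrays. Hbb-bs, another beta-globin gene, came first with r = 0.94 (rho 0.90, and 0.88 without the 2 farthest arrays, MM replicates 2 and 3). The alpha-globin gene Hba-a3 had r = 0.84 (rho 0.68) and 0.54 without those arrays. Between them came Hnrnpab, an RNA-binding protein gene, at 0.84, but in the liver channel alone its r was -0.75. Cd52, a surface glycoprotein of leukocytes, had r = 0.78 in the log ratio and 0.84 in the liver channel. The next were Fam174c (0.77), Ddx21 (0.76), Gnl2 (0.76) and Utp25 (0.75), of which the last 3 encode proteins of ribosome assembly. The most opposed were Echs1, an enzyme of fatty acid oxidation (-0.85), Lcat, which esterifies plasma cholesterol (-0.83), and Stxbp3 (-0.81), and without MM replicates 2 and 3 r was -0.52 for Echs1, -0.46 for Lcat, -0.63 for Stxbp3, 0.59 for Hnrnpab, 0.60 for Cd52, 0.42 for Fam174c, 0.63 for Ddx21, 0.55 for Gnl2 and 0.76 for Utp25. On MM replicate 2 the deviation of Lcat from its MM mean was -1.80. Of 7372 candidates, 27 exceeded 0.7 and 33 lay below -0.7, around a median of -0.01.

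Of the other globin genes, 3 were bright enough to enter the tests. Hbb-bs differed by -0.82 ± 0.36 in M minus C and Hba-a3 by -0.83 ± 0.36, and in MM minus M they differed by 0.47 ± 0.36 and 0.53 ± 0.36. The alpha-globin gene Hba-a1 had 2 probes that disagreed in size, at -0.31 ± 0.14 for the probe used in the fit and -0.99 ± 0.18 for the other. Limma called 0 of these 3 genes in any comparison, each through its probe in the fit, and the other Hba-a1 probe was not tested. In M minus C the limma adjusted p was 0.25 for each, with an unadjusted p of 0.0364 for Hba-a3 and 0.0381 for Hba-a1. Without MM replicate 2, MM minus M was 0.10 for Hbb-bs and 0.09 for Hba-a3. The embryonic and fetal chain genes Hbe1, Hbg1 and Hbz did not reach well above background in liver on any array.

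The probe of Hba-a1 in the fit also showed a reference channel that followed the liver channel. Over the 8 arrays of slide 2 its 2 channels correlated at r = 0.99 (rho 0.98, 0.96 without the 2 farthest arrays), and the reference signal rose by 0.98 log2 units per unit of liver signal. On slide 1 r was 0.91 with a slope of 0.79. For the 8 probes of the 5 genes this slope reached at most 0.22. In M minus C the Hba-a1 probe in the fit gave -0.31 in the log ratio and -0.71 in the liver channel. For Alas2 the difference was larger in the log ratio than in the liver channel. For the first Hbb probe r was 0.90 on slide 2 and 0.76 on slide 1, whereas over all tested features the median r was 0.31 on slide 2 and 0.27 on slide 1. Without the 2 farthest arrays this r of the first Hbb probe was 0.24 on slide 2 and 0.30 on slide 1. For Hbe2 it was 0.54 and 0.86, and on slide 2 it was 0.77 for the second Hbb probe, 0.64 for the first Hbb-b1 probe and 0.62 for Alas2. What makes the channels move together was not tested.

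**Figure D3:**
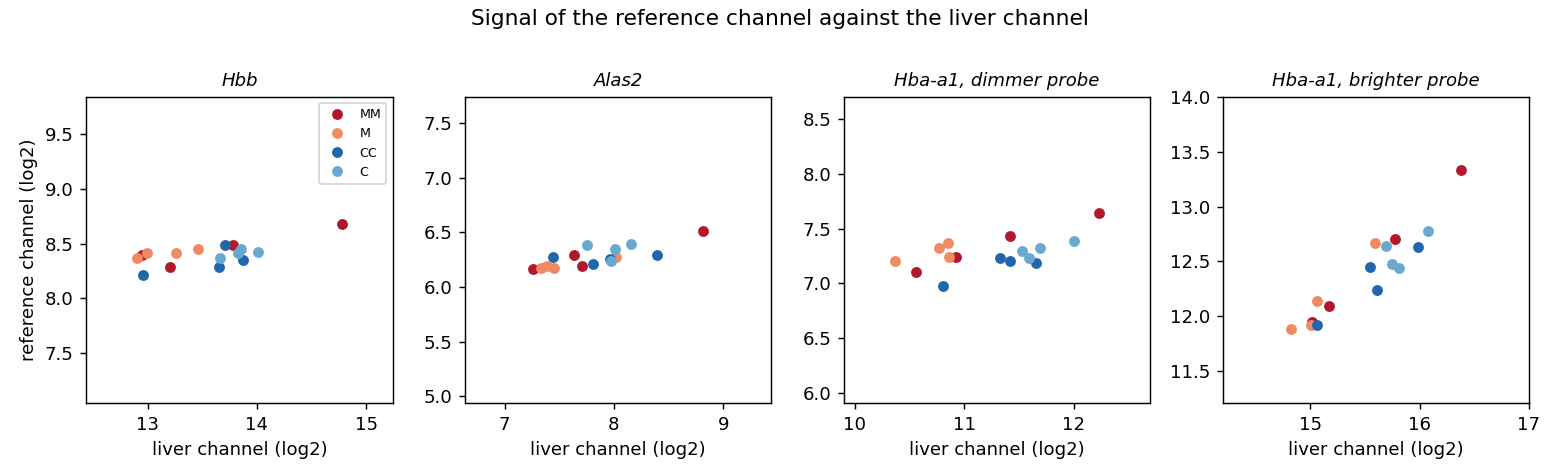
Reference channel against liver channel (both log2, same scale on both axes) for 4 probes, 1 point per array. For Hbb and Alas2 the slope is at most 0.22, while the brighter Hba-a1 probe follows a slope of 0.98 on slide 2, and the point farthest right in each panel is MM replicate 2.

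Of 12 tested genes of heme synthesis outside the 5, 8 lay above and 4 below 0 in M minus C, with a median of 0.06 beside -0.03 for all features, and 0 were called. In MM minus M, 1 lay above and 11 below 0, with a median of -0.07, and in the interaction 2 lay above and 10 below, with a median of -0.12, again with 0 called. Alas1, the form of the first heme enzyme that hepatocytes use, differed by 0.06 ± 0.30 in M minus C and by -0.22 ± 0.30 in MM minus M. Leaving out single arrays moved the Alas1 value in M minus C between -0.15 (without M replicate 7) and 0.29 (without M replicate 5). Iba57, of iron-sulfur cluster assembly, differed by 0.25 ± 0.14 in M minus C. In MM minus M, Clpx, a mitochondrial chaperone that activates the first enzyme, was at -0.29 ± 0.14.

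Transcription factors that drive red cell formation were mostly below the measuring range. Gata1 and Klf1, the central factors of the erythroid program, had 0 arrays with liver signal well above background, as had 9 of the 15 regulator and chaperone genes with a probe. Of the 4 tested beside Ahsp, Bcl11a, a repressor of fetal globin, differed by -0.46 ± 0.12 in M minus C (limma adjusted p = 0.0509), with 0.35 in the reference channel and -0.18 in the liver channel. Ldb1, a partner of Gata1, was at 0.19 ± 0.08.

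Of the red cell membrane genes, Slc4a1, the anion exchanger of the red cell, read 1.17, 1.58, 0.73 and 1.09 in MM, 1.43, 1.54, 1.02 and 1.02 in M, 1.71, 1.90, 1.45 and 1.34 in CC and 1.64, 1.56, 0.82 and 1.24 in C, and all 4 groups overlapped. Its difference in M minus C was -0.06 ± 0.20. Of 7 tested membrane genes, 4 lay above 0 and 0 were called, and Sptb, which encodes a beta chain of spectrin, was well above background in liver on 0 arrays. Xk, a red cell membrane protein, was at 0.23 ± 0.09 in M minus C, Aqp1, the water channel, at 0.24 ± 0.13, and Rhd, a blood group antigen, at 0.12 ± 0.12 in MM minus M. Of 16 tested genes for red cell enzymes and reticulocyte proteins 8 lay above and 8 below 0 in M minus C, and 0 were called. Examples were the peroxide-degrading enzyme Cat at -0.47 ± 0.16 and the exonuclease Isg20 at 0.65 ± 0.26 in M minus C, and Ube2l6 at -0.31 ± 0.15 and Rbm38 at 0.21 ± 0.14 in MM minus M.

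In M minus C, 5 of 115 tested list genes outside the 5 were called, beside 4.1% of all features, and 0 in each of the other comparisons. From the list of iron handling, Tfr2, the liver's sensor of iron-loaded transferrin, was higher in M by 0.74 ± 0.18 (limma adjusted p = 0.0338), and Slc11a1, a metal transporter of macrophages, by 0.49 ± 0.11 (0.0166). Tf, transferrin itself, was lower by -0.56 ± 0.15 (0.0488). From the list of haemoglobin and heme scavenging, Ambp, the precursor of the heme-binding alpha-1-microglobulin, was lower by -0.61 ± 0.15 (0.0318). From the list of sinusoidal endothelium, Eng, a TGF-beta co-receptor, was higher by 0.66 ± 0.15 (0.0231). In the liver channel alone, 0 of these 5 passed. With the scanner software's log ratio and with the authors' value table, Ambp (-0.36 and -0.42, limma adjusted p = 0.117 and 0.158) and Tf (-0.40 and -0.35, 0.0771 and 0.134) were not called. Tf was not called without background subtraction (0.0681), and neither Tf (0.0737) nor Tfr2 (0.052) was called without the filter on dim probes. With the scanner software's log ratio Slc11a1 was at 1.25 and Eng at 1.08. Ambp was at 0.01 in the liver channel alone, while its reference channel was 0.48 higher in M. For Tf the liver channel gave -0.15 and the reference channel 0.21. Tfr2, Slc11a1 and Eng were at 0.58, 0.30 and 0.44 in the liver channel, with reference values of -0.17, -0.17 and -0.08. Leaving out C replicate 9 took the limma adjusted p of all 5 past 0.05, to 0.056 for Slc11a1, 0.0607 for Eng, 0.0644 for Tfr2, 0.0691 for Tf and 0.0739 for Ambp, and without M replicate 8 it was 0.0925 for Eng, 0.107 for Ambp, 0.117 for Tfr2 and 0.144 for Tf. Other single arrays ended some of these calls too. In MM minus M, which shares the M arrays, Tfr2 was at -0.55 ± 0.18 and Eng at -0.48 ± 0.15.

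Scavengers of free haemoglobin and heme were measured as values. Haptoglobin, Hp, differed by -0.38 ± 0.14 in M minus C but by 0.04 in the liver channel, and hemopexin, Hpx, by -0.17 ± 0.17. Hmox1, which degrades heme, was at 0.48 ± 0.14 (limma adjusted p = 0.0682), with 0.23 in the liver channel. Cd163, the haptoglobin receptor of macrophages, was at -0.17 ± 0.33, and the heme transporter Slc46a1 at -0.23 ± 0.18 in MM minus M. Single arrays moved both, Cd163 between -0.35 (without M replicate 7) and 0.04 (without M replicate 6), and Slc46a1 to -0.06 without MM replicate 3.

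Markers of other cells in blood and liver were summed up beside these differences, as the mean log2 liver signal over the tested genes of a list. For 11 Kupffer cell markers the arrays ran from 8.19 to 8.90 in MM, 8.54 to 8.75 in M, 8.36 to 8.72 in CC and 8.29 to 8.82 in C. For 5 lymphocyte markers they ran from 7.43 to 7.80 in MM, 7.50 to 7.70 in M, 7.51 to 7.62 in CC and 7.34 to 7.62 in C. For 4 markers of neutrophils and monocytes they ran from 7.12 to 7.43 in MM, 7.14 to 7.43 in M, 7.01 to 7.26 in CC and 7.13 to 7.31 in C. All groups overlapped in these 3 lists, and their part in the result was not tested. The 6 endothelial markers ran from 8.02 to 8.28 in MM, 8.09 to 8.28 in M, 8.15 to 8.24 in CC and 7.97 to 8.13 in C. Here CC lay above C, in the opposite direction to the 5 genes, and this gap was not set against other features. In M minus C, 4 of 6 endothelial markers lay above 0 with a median of 0.08, 6 of 11 Kupffer cell markers with a median of 0.01, 4 of 5 lymphocyte markers with a median of 0.07 and 5 of 9 stellate cell and bile duct markers with a median of 0.03. Of 10 tested scavenging genes 6 lay above 0, with a median of 0.05, and of 15 iron genes 4 did, with a median of -0.08. The neutrophil and monocyte list had 2 of 4 above 0, the platelet list 1 of 2, and the erythroid regulators 3 of 4. Most markers of blood leukocytes and platelets were below the measuring range, with 11 of 15 probed neutrophil and monocyte genes, 9 of 14 lymphocyte genes and 6 of 8 platelet genes not bright enough to be tested.

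The 12 hepatocyte markers, among them Alb, Ttr and Apoa1, were all present and served as a check of the tissue. In M minus C all 12 lay below 0 in the log ratio, with a median of -0.20 beside -0.03 for all features and -0.11 for the features with a mean log2 liver signal above 10, and 0 were called. In the liver channel alone their mean level ran from 13.40 to 13.61 in M and from 13.39 to 13.59 in C. Apoa1, the main protein of high-density lipoprotein, differed by -0.41 ± 0.13 in the log ratio, 0.04 for liver signal alone and 0.40 for reference signal alone. Cyp2e1, a cytochrome P450, was at -0.34 ± 0.11.

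**Figure D4:**
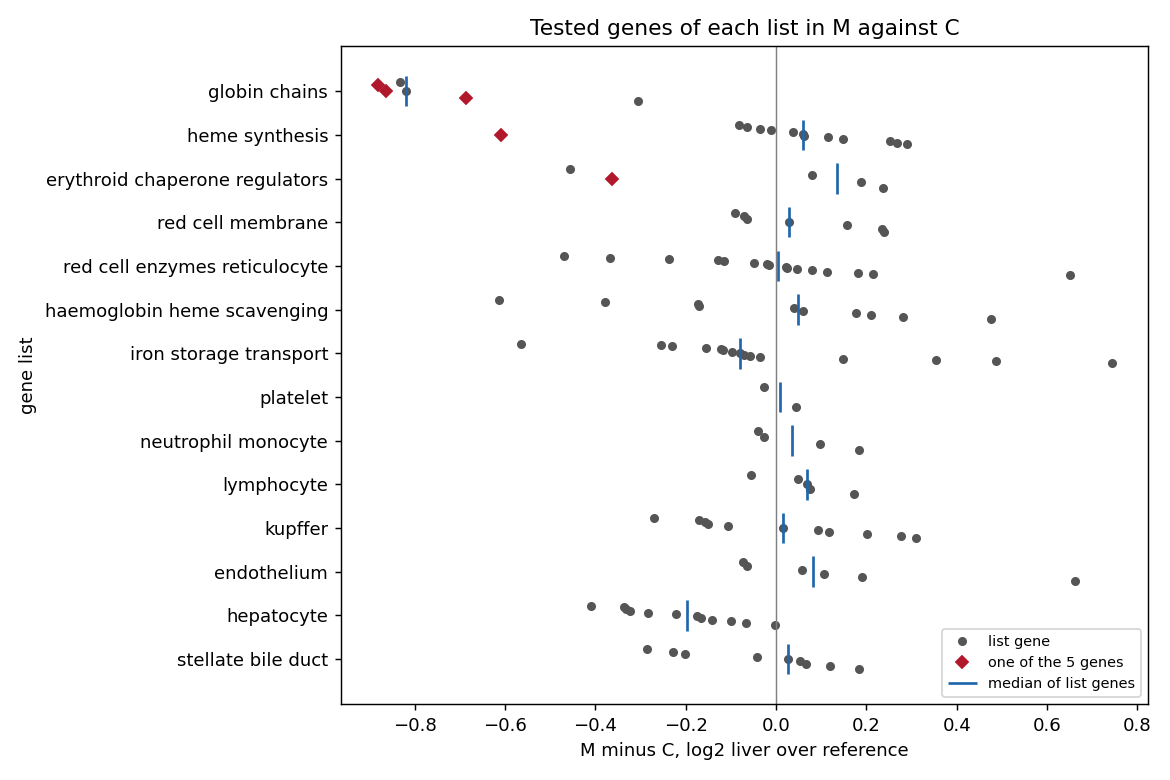
Difference M minus C in log2 liver over reference (horizontal axis) for each tested gene of each list, with the median of the genes outside the 5 and the 5 genes as diamonds. The globin row has its median at -0.82, while the lists for heme synthesis and red cell membrane have theirs at 0.06 and 0.03.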

How the data were processed

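RNA of 16 pools of adult rat liver was read on Agilent arrays against 1 reference RNA. Per the file headers, Agilent Feature Extraction 11.0.1.1 made the scanner files, from which the median intensity of spots and of their background was taken in both dyes. Its own ratio of the processed red and green signals, on a log10 scale, is deposited too. The authors also deposited a table of processed values, read here as log2 of liver over reference, because it correlated at 0.989 to 0.995 with loess log ratios without background subtraction. Its array medians were -0.04 to -0.03, and its centring is unknown.

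Background was corrected by normexp (offset 50) and each array was loess-normalized, in limma 3.58.1 under R 4.3.3. Medians were used because the files carry no mean signals. Outlier spots were left out, 732 to 1138 per array. Each channel alone was log2 of the corrected signal, quantile-normalized between arrays. Of 30367 probes, 18005 took a current symbol through their accession from the RefSeq table of GRCr8, and the brightest probe stood for each name. Tests covered features that the scanner software marked well above background for liver RNA on 3 or more arrays of any 1 group. One fit of 4 group means over 16 arrays gave all comparisons, adjusted over all features (Benjamini-Hochberg, 0.05). The fit was tested on simulated data.

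The 5 genes and the 14 gene lists (208 genes, 120 of them tested) were chosen with earlier results of these data known. Named by rule were called list genes, the 2 genes of a list with the lowest p in M minus C and in MM minus M, some fixed genes, and the genes most like or opposed to the 5. Some genes that this rule names are not reported here. CC and MM arrays share the numbers 1 to 4 in the labels. Deviations of same-numbered arrays correlated at 0.55, 0.16, 0.58 and 0.19. In the same slide row, CC replicate 1 with MM replicate 2 gave 0.44 and CC replicate 2 with MM replicate 1 gave 0.24. CC replicate 3 with MM replicate 4 gave 0.33, and CC replicate 4 with MM replicate 3 gave 0.16. The numbers follow the slide row, so these values do not tell a pairing of pools apart from the row. Same-numbered arrays were taken as pairs only in an alternative fit.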

Additional observations from a re-analysis of the deposited data

Results flagged for a closer look

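Of 96 groups of 4 values examined for the 8 probes (3 measures, 4 groups), 8 held a value far from the rest by Dixon's test, and chance alone gives about 1 in 20. In the log ratio, Ahsp stood at 0.38 on C replicate 11, with the nearest C value at 0.09, and at 0.27 on CC replicate 3, with the nearest at -0.06. In the liver channel, Hbb-b1 stood at 15.02 on C replicate 11, Ahsp at 7.52 on CC replicate 3 and Alas2 at 8.02 on M replicate 5. In the reference channel, the second Hbb probe stood at 6.24 on MM replicate 1, Hbb-b1 at 9.78 on MM replicate 2, and Ahsp at 8.75 on MM replicate 2, the last 0.02 below the next value.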

How the results depend on the processing

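For the 5 genes, 712 values under other settings moved by less than the spread between pools, and 10 moved by more. All 10 came from the reference channel alone, which is the denominator of the log ratio. There M minus C was -0.0041 for Hbb, -0.098 for Hbb-b1, -0.13 for Hbe2 and 0.0054 for Ahsp, MM minus M was 0.097 for Hbb-b1 and -0.015 for Ahsp, and the interaction was 0.13 for Hbb, 0.095 for Hbb-b1, 0.23 for Hbe2 and 0.0041 for Ahsp. The count of features called depended on the processing. With the scanner software's log ratio it was 1 in CC minus C, 1367 in M minus C and 491 in MM minus CC. With the slide row as a block it was 1199 in M minus C and 446 in MM minus CC. The liver channel alone gave 1 in M minus C and 3 in MM minus CC, the reference channel alone 5376 and 5025, and the liver channel after loess and Aquantile 27 and 18. Leaving out single arrays gave 215 (without M replicate 8) to 532 (without MM replicate 3) in M minus C and 36 (without CC replicate 2) to 111 (without C replicate 11) in MM minus CC. The replicate block for same-numbered CC and MM arrays gave 135 called features in MM minus CC, the only comparison it was fitted for. Among list genes in M minus C, Ambp was at 0.013 in the liver channel alone. In the reference channel alone the sign turned, with a call in the log ratio or in that channel, for Ambp (0.48), Tf (0.21), Tfr2 (-0.17), Slc11a1 (-0.17), Eng (-0.075), Hbb-bs (0.16), Iba57 (-0.22), Clpx (0.19), Bcl11a (0.35), Ldb1 (-0.10), Aqp1 (-0.27), Cat (0.21), Isg20 (-0.12), Hmox1 (-0.24), Slc46a1 (-0.095), Col1a1 (0.068), Epcam (-0.16), Hp (0.26) and Hpx (0.33), and, with a call in neither, for Apoa1 (0.40), C1qb (0.31) and Cyp2e1 (0.076) among others. Elsewhere the cause was not tested. The number of pools, 4 a group, limits the precision.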
